A study of Mus musculus with 10 samples.

Results

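The vascular endothelial growth factor (VEGF) family was followed in whole-lung mRNA through 9 genes: 4 ligands (Vegfa, Vegfb, Vegfc and Pgf), 3 receptor tyrosine kinases (Flt1, Kdr and Flt4) and 2 co-receptors (Nrp1 and Nrp2). They were found by gene name in the deposited expression table, where all 9 of the 54532 genes were present and all 9 passed the filter on low values. Lungs came from wild-type C57BL/6J mice at postnatal day 30 (P30), 5 in the increased pulmonary flow (IPF) group and 5 in the sham group. At P7 the IPF mice had received an aortocaval fistula, a needle-made opening between aorta and vena cava in the abdomen that raises flow through the lungs, and the sham mice a laparotomy without the puncture. The fistula loads the whole circulation from outside the lung, and the RNA came from whole tissue rather than from sorted vessel cells.

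VEGF ligands are secreted proteins that make blood and lymphatic vessels sprout, survive and become permeable. Vegfa signals mainly through Kdr on blood endothelium, while Flt1 binds the same ligand tightly with little kinase output and also exists as a soluble form that holds ligand back. Vegfb and Pgf bind Flt1, Vegfc binds Flt4, which marks lymphatic endothelium, and the neuropilins Nrp1 and Nrp2 present ligands to the kinases and also receive class 3 semaphorins. In the lung, Vegfa is made in large amounts by the alveolar epithelium, next to capillaries that carry Kdr, and this supply is needed for the capillary bed to grow after birth.

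The 250 bases before the start of 4 of these genes are shown as a description, and no motif in them was tested against expression. They are the receptors Kdr and Flt1 and the ligands Vegfa and Vegfb. With all lungs in, the Flt1 to Kdr ratio differed between the groups, and Vegfa and Vegfb went opposite ways among individual lungs. Both results had an adjusted p above 0.05 when certain lungs were left out, as given below. Sequences are from RefSeq on GRCm38.p6, each read along its gene's strand. Capitals in the receptor sequences mark the core bound by ETS transcription factors (GGAA, or TTCC on the other strand), and capitals in the ligand sequences mark the GC box (GGGCGG, or CCGCCC on the other strand).
Kdr, chr5:75978456-75978705, minus strand: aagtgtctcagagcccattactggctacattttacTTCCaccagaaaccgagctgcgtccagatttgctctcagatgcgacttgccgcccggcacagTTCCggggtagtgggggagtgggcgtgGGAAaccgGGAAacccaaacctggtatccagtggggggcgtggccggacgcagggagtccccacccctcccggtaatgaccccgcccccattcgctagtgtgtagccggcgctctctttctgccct
Flt1, chr5:147726012-147726261, minus strand: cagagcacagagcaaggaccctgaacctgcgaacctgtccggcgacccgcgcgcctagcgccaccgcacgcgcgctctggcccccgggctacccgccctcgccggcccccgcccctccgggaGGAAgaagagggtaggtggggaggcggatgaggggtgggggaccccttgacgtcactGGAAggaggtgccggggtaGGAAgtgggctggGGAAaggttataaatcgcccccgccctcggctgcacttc
Vegfa, chr17:46032378-46032627, minus strand: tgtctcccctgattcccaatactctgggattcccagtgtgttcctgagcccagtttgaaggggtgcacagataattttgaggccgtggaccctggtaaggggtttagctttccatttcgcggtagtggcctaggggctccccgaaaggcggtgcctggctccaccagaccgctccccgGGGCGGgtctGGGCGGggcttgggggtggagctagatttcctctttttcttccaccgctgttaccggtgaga
Vegfb, chr19:6987652-6987901, minus strand: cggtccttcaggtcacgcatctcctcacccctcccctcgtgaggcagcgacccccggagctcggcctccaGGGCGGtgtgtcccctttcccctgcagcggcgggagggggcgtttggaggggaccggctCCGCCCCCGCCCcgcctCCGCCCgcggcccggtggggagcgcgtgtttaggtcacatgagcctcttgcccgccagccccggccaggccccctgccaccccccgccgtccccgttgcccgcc

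Kdr and Flt1 each held 4 ETS cores in this window, Vegfa held 6, not in capitals, and Vegfb 1. Such cores are common, since 93.4% of all 32851 mouse promoter windows of this length held at least 1 and the median was 3. In Flt1 the core at 71 bases before the start lies just after a cAMP response element (TGACGTCA, at 81 bases before the start), a motif held by 1.55% of windows, and a TATA box (TATAAA or TTTATA) follows at 31 bases before the start, a motif held by 12.4% of windows. Neither motif was found in the Kdr window, which was less rich in G and C (61.6% against 70.4%). The GC box was found 2 times in Vegfa and 4 times in Vegfb, with 2 of them side by side, and also, not in capitals, 2 times in Kdr and 3 times in Flt1. It was held by 32.7% of windows. In none of the 9 genes did this window hold the clock E-box CACGTG, which 6.02% of windows held. None held ACGTG, a form of the hypoxia response core that lies within it, on either strand, which 16.6% held. The form GCGTG was not counted, and the Kdr, Flt1 and Vegfb windows above hold it when both strands are read.

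Values are FPKM, fragments per kilobase of gene, scaled to the mapped fragments of the library, so levels can be compared between genes. The reads behind the values, recovered from FPKM and gene length, numbered between 15483046 and 19026843 per library. The lungs carried strong type 1 alveolar transcripts (Ager, a mean of 848 FPKM in the IPF and 882 FPKM in the sham group) and endothelial transcripts (Cdh5, 306 and 280 FPKM, and Pecam1, 172 and 178 FPKM, the 1 of 10 pan-endothelial markers with a lower mean in IPF). Sham replicate 1 stood apart from the other libraries, with the lowest level of the surfactant gene Sftpc (9437 FPKM) and a mean Spearman correlation across genes of 0.957 with the others, where the others had 0.963 to 0.968. IPF replicate 5 had a summed level of 5 neutrophil markers of 296.9 FPKM, where the other IPF lungs had 51.3 to 72.7 and the sham lungs 14.6 to 71.1 FPKM, and it also had the highest Vegfc and Pgf of all lungs. The part of this in their values was not tested beyond leaving the lung out. The groups also differed in 2 ways that the labels do not name. Xist, the RNA of the inactive X chromosome, was at 26.8 to 43.2 FPKM in every IPF lung and at most 0.0767 FPKM in any sham lung, and the Y-linked Ddx3y was listed at 0 in every IPF lung and at 14.3 to 21.4 FPKM in the sham lungs. Of 12 circadian clock genes, 11 differed (3 higher and 8 lower in IPF, limma adjusted p under 0.05). Within the IPF group replicate 5 lay nearest the sham lungs in all of the 12 but Clock, Cry1 and Ciart. Nr1d2, for example, was at 17.3 FPKM in it, at 2.79 to 4.58 in the other IPF lungs and at 43.1 to 47.1 in sham. Sex and surgery therefore cannot be told apart in any comparison below, and the part of the hour of collection was not tested.

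None of the 9 members passed the test between IPF and sham (limma on log2(FPKM + 0.1), adjusted p under 0.05 with Benjamini-Hochberg adjustment over 20448 genes), where 5.85% of all genes passed, 3.71% higher and 2.14% lower in IPF. At an unadjusted p under 0.05 there were 3 members, Vegfb, Kdr and Nrp2, each with a higher mean in IPF, against 19.5% of all genes. Limma voom on the recovered reads gave the same counts, 0 and 3. The study's own limits, which add an absolute log2 fold change above 1, were passed by 1.14% of all genes and by 0 members. The differences were small: the log2 fold changes of the members lay between -0.23 and 0.25, with a median absolute value of 0.193, where that of all genes was 0.17. The 95% intervals reached no further than 1.496-fold in either direction for any of the 9 members in this fit. In whole tissue, a difference in the number of cells that carry a transcript and in its amount per cell cannot be told apart.

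**Figure D1:**
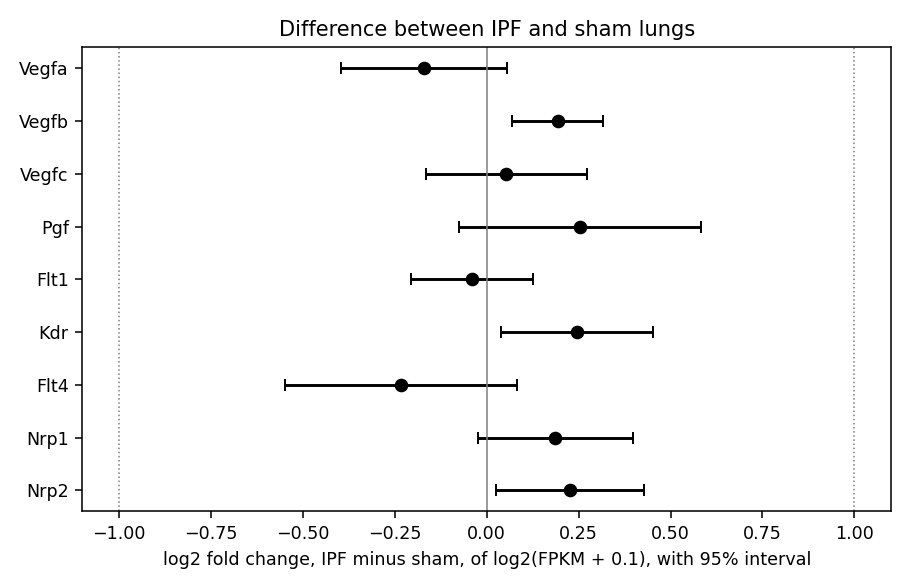
Difference between the IPF and sham groups for each member, as the log2 fold change on the log2(FPKM + 0.1) scale (horizontal axis) with its 95% interval from limma (n = 5 per group). All 9 intervals lie well inside the dotted lines at -1 and 1, and those of Vegfb, Kdr and Nrp2 lie above 0.

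Vegfa was by far the most abundant member, at rank 167 of the 20448 genes by mean FPKM. Vegfa (ENSMUSG00000023951, chromosome 17 of GRCm38, 46016993 to 46032369) drives endothelial growth and permeability, and its mRNA is spliced into several forms that this gene-level table does not separate. The sham lungs were at 235, 210, 197, 181 and 206 FPKM in the order of replicates 1 to 5, and the IPF lungs at 229, 180, 162, 170 and 177 FPKM. Of the IPF lungs 4 lay below every sham lung, while IPF replicate 1 lay within the sham range. The group levels were 184 ± 26.3 and 206 ± 19.8 FPKM in IPF and sham (SD, n = 5 each). The log2 fold change was -0.17 (standard error 0.10, limma adjusted p = 0.402), and the interval of the fold ran from 0.760 to 1.04. Without IPF replicate 1 it was -0.25 (limma adjusted p = 0.14), and the adjusted p reached 0.588 among the fits that left out 1 lung.

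Vegfb came closest to the threshold of all members. Vegfb (ENSMUSG00000024962, chromosome 19, 6982473 to 6987651) is a ligand of Flt1 that is best known from heart and muscle, where it affects lipid handling more than vessel growth. It was at 10.1, 11.2, 11.1, 11.9 and 11.3 FPKM in sham replicates 1 to 5 and at 12.1, 12.4, 13.45, 12.6 and 13.0 FPKM in IPF replicates 1 to 5. Every IPF lung was above every sham lung, which made Vegfb the 1 member whose groups did not overlap. Among all genes 7.29% had groups that did not overlap, 4.52% with IPF higher and 2.77% with IPF lower. The means were 12.7 ± 0.534 and 11.1 ± 0.628 FPKM (SD, n = 5 each). Limma put the difference at 0.19 on the log2 scale with a standard error of 0.06 and an adjusted p of 0.0736. The exact permutation test gave an unadjusted two-sided p of 0.00794, the smallest that 5 against 5 allow. Over 20 alternative settings the limma adjusted p of Vegfb lay between 0.0565 and 0.673.

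Vegfc and Pgf had the lowest levels of the 4 ligands, and their groups overlapped. Vegfc (ENSMUSG00000031520, chromosome 8, 54077606 to 54187096) is the growth factor of lymphatic vessels. It was at 10.4, 10.4, 9.89, 10.7 and 8.49 FPKM in the sham and 10.6, 9.60, 9.01, 9.97 and 12.9 FPKM in the IPF lungs (log2 fold change 0.05, standard error 0.10, limma adjusted p = 0.823). Of the IPF lungs 4 lay within the sham range, and Vegfc was at -0.03 on that scale when IPF replicate 5, the highest, was left out. Pgf (ENSMUSG00000004791, chromosome 12, 85166635 to 85177790), placental growth factor, is a Flt1 ligand linked to vessel growth in disease more than in development. It was at 2.07, 2.11, 1.93, 2.40 and 1.47 FPKM in the sham and 2.47, 2.65, 1.95, 2.00 and 2.92 FPKM in the IPF lungs. Of the IPF lungs 3 lay above all sham lungs, where limma gave a log2 fold change of 0.25 with a standard error of 0.15 and an adjusted p of 0.390. Without sham replicate 5, the lowest, Pgf was at 0.15 (limma adjusted p = 0.603). Pgf rested on 65 to 150 reads per library, and its interval was the widest of the ligands, from 0.949-fold to 1.496-fold.

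**Figure D2:**
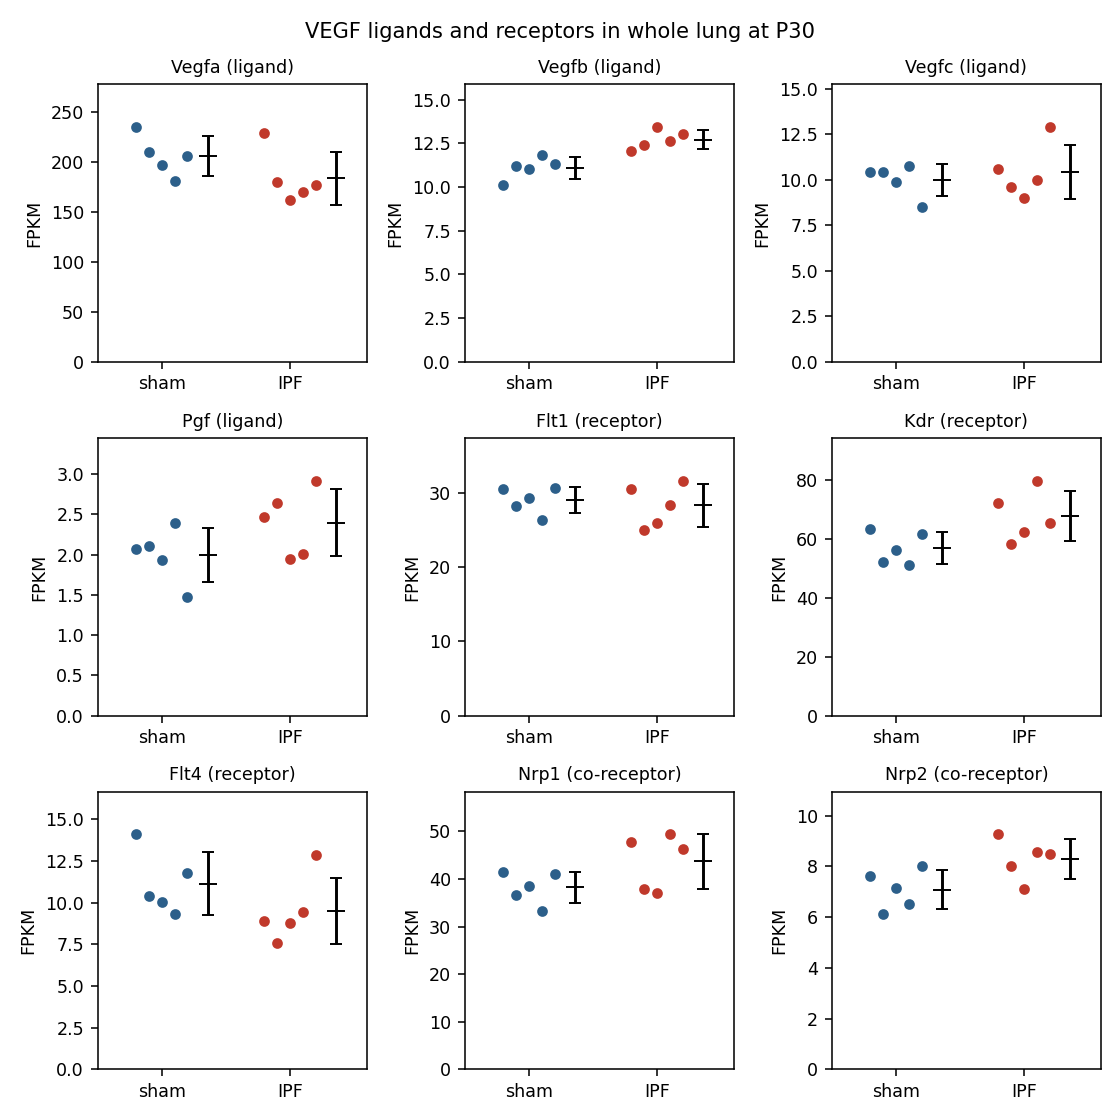
FPKM of each member in every lung, 1 panel per gene with its own axis from 0 (points: lungs in the order of replicates 1 to 5; bars: group mean ± SD, n = 5). Vegfb is the 1 panel in which the groups do not overlap, and the single high IPF points of Vegfa, Vegfc and Flt4 stand out.

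Among the receptors, the means of Kdr and Flt1 differed from each other in direction. Kdr (ENSMUSG00000062960, chromosome 5, 75932827 to 75978458) carries most VEGF signal in blood endothelium. The sham lungs were at 63.4, 52.2, 56.3, 51.4 and 61.9 FPKM and the IPF lungs at 72.3, 58.5, 62.5, 80.0 and 65.5 FPKM. In 3 of 5 IPF lungs Kdr was above all sham lungs, and the other 2 lay within the sham range. The means were 67.7 ± 8.5 and 57.0 ± 5.48 FPKM (SD, n = 5 each). In limma Kdr differed by 0.24 on the log2 scale with a standard error of 0.09, an adjusted p of 0.172 and a fold between 1.03 and 1.37. By the exact permutation test its two-sided p was 0.0476, unadjusted. Leaving out any 1 lung gave Kdr a limma adjusted p of 0.128 to 0.324.

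Flt1 (ENSMUSG00000029648, chromosome 5, 147561604 to 147726011), the high-affinity receptor with weak kinase activity, was at 30.6, 28.2, 29.3, 26.4 and 30.7 FPKM in the sham lungs. In the IPF lungs Flt1 was at 30.6, 24.96, 25.9, 28.4 and 31.7 FPKM, on both sides of the sham range. The log2 fold change was -0.04 (standard error 0.08, limma adjusted p = 0.826), and the interval of the fold, from 0.866 to 1.09, was among the narrowest of the members. The table does not separate the soluble form of Flt1 from the receptor. Flt4 (ENSMUSG00000020357, chromosome 11, 49609263 to 49652739), the receptor of Vegfc, was at 14.1, 10.4, 10.0, 9.33 and 11.8 FPKM in the sham and 8.89, 7.59, 8.77, 9.43 and 12.8 FPKM in the IPF lungs. Of the IPF lungs 3 lay below all sham lungs and IPF replicate 5 was second to sham replicate 1 among all lungs (log2 fold change -0.23, standard error 0.14, limma adjusted p = 0.411). Flt4 was at -0.35 on that scale without IPF replicate 5 (limma adjusted p = 0.116), at -0.14 without sham replicate 1 (limma adjusted p = 0.646) and at -0.16 without IPF replicate 2 (limma adjusted p = 0.65).

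The neuropilins had higher means in the IPF group, and neither passed the test over all genes. Nrp1 (ENSMUSG00000025810, chromosome 8, 128358604 to 128503363) presents Vegfa to Kdr. It was at 41.5, 36.7, 38.6, 33.3 and 41.0 FPKM in the sham and 47.8, 38.0, 37.1, 49.4 and 46.2 FPKM in the IPF lungs. In 3 IPF lungs Nrp1 was above all sham lungs (log2 fold change 0.19, standard error 0.10, limma adjusted p = 0.318). Nrp2 (ENSMUSG00000025969, chromosome 1, 62703285 to 62818695) is the neuropilin of veins and lymphatics. It was at 7.63, 6.11, 7.16, 6.51 and 8.01 FPKM in the sham and 9.27, 8.02, 7.13, 8.58 and 8.48 FPKM in the IPF lungs, with 4 of 5 IPF lungs above all sham lungs and replicate 3 within their range. The log2 fold change was 0.23 (standard error 0.09, limma adjusted p = 0.195). Few genes overlap the members on the genome: the microRNA gene Mir1903 lies within Nrp1 and the antisense gene Gm29083 within Nrp2, both listed at 0 in every library, and Gm37121 within Nrp2 reached at most 0.231 FPKM.

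Ratios between members, 3 in all, were compared within each lung, where the scaling of the library drops out. Flt1 was at 0.482, 0.540, 0.520, 0.513 and 0.495 of the level of Kdr in sham replicates 1 to 5 and at 0.423, 0.427, 0.414, 0.355 and 0.483 in IPF replicates 1 to 5. In 4 of 5 IPF lungs this ratio was below all sham lungs, and in IPF replicate 5 it was just above the lowest of them. The mean was 0.421 ± 0.0456 in IPF and 0.510 ± 0.0225 in sham (SD, n = 5 each), a difference of -0.29 on the log2 scale (standard error 0.08; exact permutation test, two-sided p = 0.0159, 0.0476 after Benjamini-Hochberg adjustment over 3 ratios). When 1 lung at a time was left out, the adjusted p of the exact permutation test was 0.0476 without IPF replicate 5, sham replicate 1 or sham replicate 4 and above 0.05 in the other 7 of 10 tests, up to 0.0952, while the unadjusted p stayed at or under 0.0317 in all 10. Nrp2 was at 0.191 ± 0.0139 of Nrp1 in IPF and 0.185 ± 0.0119 in sham (SD, n = 5 each), a log2 difference of 0.04 (standard error 0.06; exact permutation test, two-sided p = 0.524). Pgf was at 0.0132 ± 0.00236 of Vegfa in IPF and 0.00981 ± 0.00224 in sham (SD, n = 5 each), a log2 difference of 0.44 (standard error 0.18; exact permutation test, two-sided p = 0.0556, adjusted 0.0833).

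**Figure D3:**
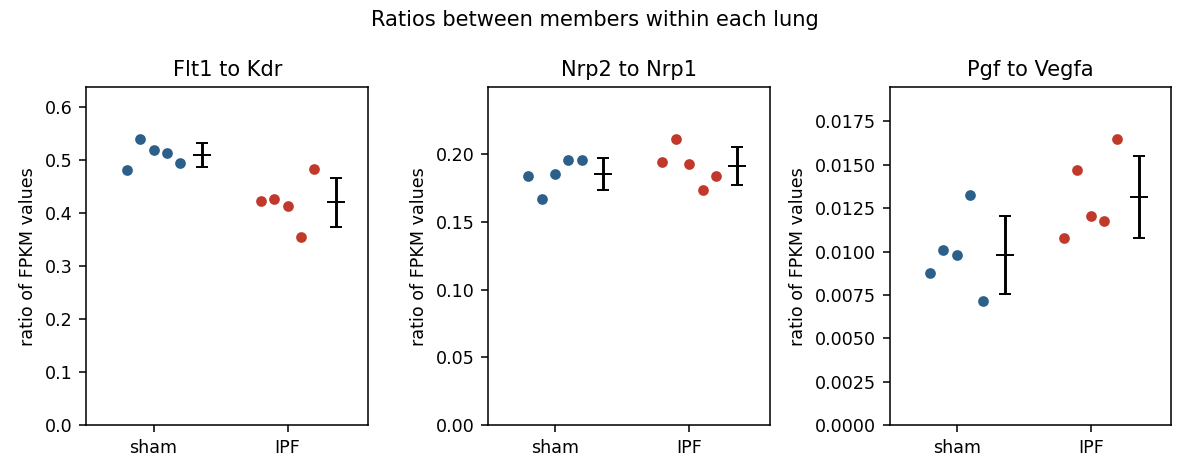
Ratio of FPKM values between 2 members in each lung, with axes from 0 (points: lungs in the order of replicates 1 to 5; bars: group mean ± SD, n = 5). The Flt1 to Kdr ratio of 4 IPF lungs lies below all sham lungs, the fifth (0.483) is level with the lowest sham lung (0.482), and the ranges of the other 2 ratios overlap more widely.

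The same shift can be read as the makeup of the receptors. Kdr made up 64.1% ± 2.98 of the summed level of the 3 receptors in IPF and 58.7% ± 0.713 in sham (SD, n = 5 each), from 59.55% to 67.9% against 57.5% to 59.33%. Flt1 took 26.9% ± 1.72 and 29.9% ± 1.102, and Flt4 9.00% ± 1.56 and 11.4% ± 1.005. Of the 4 ligands, Vegfa made up 87.7% ± 1.54 in IPF and 89.8% ± 1.28 in sham, and Vegfb 6.17% ± 0.903 and 4.90% ± 0.654 (SD, n = 5 each). These shares restate the levels above and were not tested apart from them.

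The order of the 9 levels was clear at the top and at the bottom. Vegfa was above Kdr, Kdr above Nrp1, Nrp1 above Flt1 and Flt1 above Vegfb in all 10 lungs, with ranges over lungs that did not overlap, and Pgf was below Nrp2 in all 10. Vegfa was on average 3.17 times the level of Kdr. In the middle, Vegfb, Flt4 and Vegfc had overlapping ranges, and Flt4 exceeded Vegfc in 3 of 10 lungs, all of them among the 5 sham lungs. The spread between lungs of a group, as the SD over the mean, was smallest for Vegfb (4.2% in IPF and 5.65% in sham) and largest for Flt4 in IPF (20.9%) and Pgf in sham (17.1%).

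Some pairs of members varied together among lungs of the same group. After the group means were removed from log2(FPKM + 0.1), the 36 pairs of members were correlated over the 10 lungs (permutation test with 100000 resamples, two-sided, Benjamini-Hochberg adjustment over 36 pairs). Of the pairs 6 had an adjusted p under 0.05 by Pearson's r and 4 by Spearman's rho. Kdr and Nrp1, which act as a complex on blood endothelium, had r = 0.890 (permutation p = 0.00101, adjusted 0.0279) and rho = 0.867 (permutation p = 0.00218, adjusted 0.0489), and r = 0.865 without the 2 lungs farthest from the median of Kdr. Flt1 and Nrp1 had r = 0.876 (permutation p = 0.00155, adjusted 0.0279), with rho = 0.685 (permutation p = 0.0356, adjusted 0.142) and r = 0.903 without the 2 farthest lungs. Flt1 and Flt4 had r = 0.794 (permutation p = 0.0052, adjusted 0.0374) and rho = 0.830 (permutation p = 0.00479, adjusted 0.0489), which fell to r = 0.604 without the 2 farthest lungs. Nrp1 and Nrp2 had r = 0.804 (permutation p = 0.00687, adjusted 0.0412) and rho = 0.855 (permutation p = 0.00291, adjusted 0.0489), or r = 0.666 without them. All pairs among Flt1, Kdr, Flt4, Nrp1 and Nrp2 had a positive r.

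The ligands did not follow that pattern as a group. Vegfc and Pgf had r = 0.828 (permutation p = 0.00261, adjusted 0.0313) and rho = 0.818 (permutation p = 0.00543, adjusted 0.0489), with r = 0.698 without the 2 farthest lungs, IPF replicate 5 and sham replicate 5. Vegfa and Vegfb went opposite ways, with r = -0.823 (permutation p = 0.00385, adjusted 0.0346) and rho = -0.709 (permutation p = 0.0260, adjusted 0.121). For Vegfa and Vegfb r was -0.666 without IPF replicate 1 and sham replicate 1. With sham replicate 1 left out, 4 of these 6 pairs passed the exact permutation test, and Vegfa with Vegfb (adjusted p = 0.0516) and Nrp1 with Nrp2 (adjusted p = 0.0894) did not. With the 2 farthest lungs of each pair left out, 0 pairs passed the adjusted exact permutation test and 7 had an unadjusted p under 0.05. Each of those tests had 8 lungs, and r was about as large as before for Kdr with Nrp1 and for Flt1 with Nrp1. All values of a lung come from 1 library and share its cell makeup, so these correlations do not show that 1 gene acts on another.

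**Figure D4:**
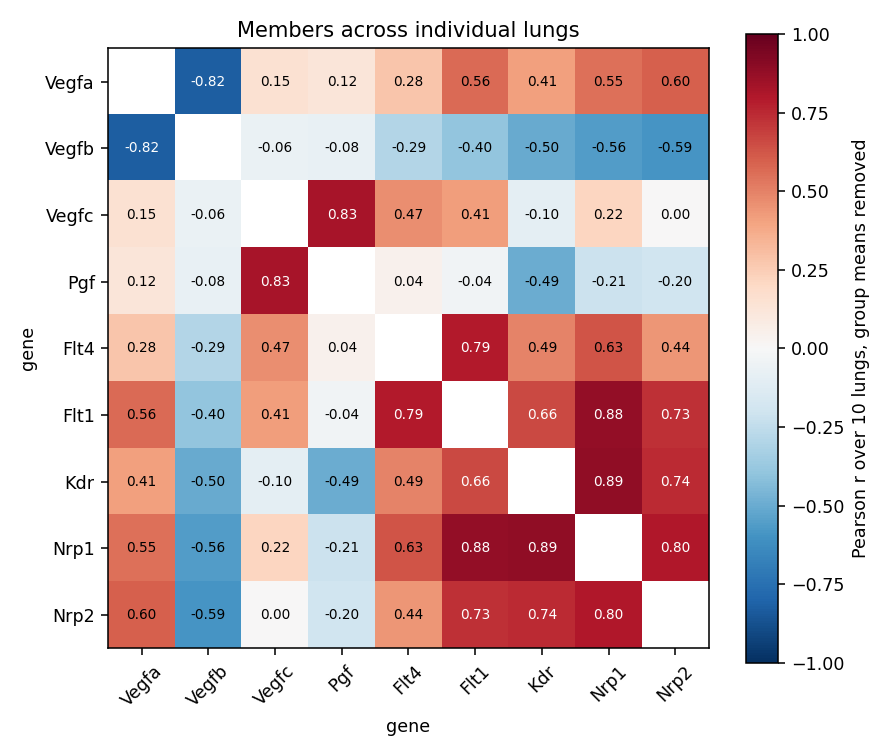
Pearson r between each pair of members over 10 lungs, computed on log2(FPKM + 0.1) with the mean of each group removed. The block of high values at the lower right holds Flt1, Kdr, Nrp1 and Nrp2, and every value in the row of Vegfb is negative, down to -0.82 with Vegfa.

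Other genes whose levels followed a member from lung to lung were looked for among 12067 protein-coding genes with a mean of at least 1 FPKM, again with group means removed and over 10 lungs, as a description without a test. Vegfa was followed most closely by Kcnk3, a potassium channel gene, with r = 0.971, then by Zfp384 (0.947) and Zfp69 (0.929). The genes most like Kdr were Lima1 (0.975), Prpf8 (0.968) and 4930402H24Rik (0.950), and those most like Flt1 were Washc5 (0.971), Eml1 (0.971) and Trim16 (0.965). For the other members the closest were Ppp2ca with Vegfb (0.918), Ybx3 with Vegfc (0.974), Gria1 with Pgf (0.975), Apc with Flt4 (0.989), Slfn3 with Nrp1 (0.950) and Arid3a with Nrp2 (0.951). None of these is a VEGF ligand or receptor.

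Around the members stand 95 genes of the VEGF pathway on 8 lists, and of these 15 passed the test, 10 higher and 5 lower in IPF (15.8%, against 5.85% of all genes tested). Their median log2 fold change was 0.005, where the median over all genes was 0.0016. The call count fell to 5 when the mean of the 10 pan-endothelial marker genes entered the fit as a covariate, where the calls over all 20448 genes fell from 1196 to 356 as well. The summed level of the markers was 1498 to 1684 FPKM in IPF and 1328 to 1406 FPKM in sham, with 9 of 10 markers at a higher mean and 1 of 10, the tight junction gene Cldn5, passing the test (432 to 481 against 238 to 340 FPKM, limma adjusted p = 0.0107). Cldn5 made up most of that gap, and without it the sum of the other 9 was 1065 to 1237 FPKM in IPF and 1025 to 1091 FPKM in sham, which overlap. With the same covariate the log2 fold change of Kdr was 0.30 (limma adjusted p = 0.573) and that of Flt1 -0.20 (limma adjusted p = 0.614). Nrp1 was at 0.08 (limma adjusted p = 0.931) and Flt4 at -0.47 (limma adjusted p = 0.53). Vegfc and Pgf changed sign in that fit, to -0.32 (limma adjusted p = 0.375) and -0.10 (limma adjusted p = 0.938). The covariate itself was higher in IPF (mean of log2 values 6.699 against 6.533 in sham), so this fit cannot tell endothelial content from group. Standard errors grew with it, that of Kdr from 0.0941 to 0.186 and that of Vegfb from 0.0564 to 0.11. The part of endothelial content in these results was not tested.

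Transcription factors of the endothelium, which act at the promoters of Kdr and Flt1 among others, held the most calls of any list: 5 of 10 were higher in IPF and 0 lower, with a median log2 fold change of 0.194. Sox18, known from vascular and lymphatic development, was at 102 to 128 FPKM in IPF and 72.0 to 90.2 FPKM in sham (log2 fold change 0.51, limma adjusted p = 0.00585). The ETS factors Fli1 (11.3 to 12.7 against 8.99 to 10.2 FPKM, 0.33, limma adjusted p = 0.00644) and Ets1 (42.0 to 50.5 against 35.9 to 40.5 FPKM, 0.32, limma adjusted p = 0.01004) followed. Sox7 (0.35) and Tal1 (0.28), named after their values were seen, passed as well, while Erg, another ETS factor of endothelium, was at 41.5 and 40.8 FPKM. With quantile normalization the limma adjusted p of Ets1 was 0.0837, and with the pan-endothelial covariate Ets1 was at 0.48 on the log2 scale (adjusted p = 0.0474). In the same covariate fit the log2 fold change of Sox18 shrank to 0.23 (limma adjusted p = 0.506), while that of Fli1 was 0.36 with an adjusted p of 0.161. Sox7 and Tal1 were not called in that fit either, so Ets1 was the only called factor of this list. P4ha1 (0.57), Ccbe1 (-1.385), Gpc1 (-0.45), Hlx (0.73) and Nr4a2 (-0.61), described next, also had an adjusted p above 0.05 in that fit, with log2 fold changes at least as large as without the covariate.

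Genes that VEGF signaling is known to induce in endothelium moved in both directions, 2 of 9 higher and 2 lower. Angpt2, the Tie2 ligand stored in endothelial cells that loosens vessels, was at 10.6 to 14.6 FPKM in IPF and 4.04 to 6.397 FPKM in sham (log2 fold change 1.24, limma adjusted p = 0.000338). Hlx, a homeobox gene, rose by 0.61 (limma adjusted p = 0.00378). The nuclear receptor Nr4a2 fell by 0.59 (limma adjusted p = 0.00415), and Adamts1, named after its values were seen, fell by 0.48 (limma adjusted p = 0.01996). Adamts1 was not called with the pan-endothelial covariate. The calcineurin inhibitor Rcan1, often read as a sign of VEGF signaling, was at 23.2 and 18.1 FPKM in IPF and sham (0.35, limma adjusted p = 0.0524).

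Hypoxia is the best known inducer of Vegfa. Among 9 regulators of the hypoxia response 0 were higher and 1 was lower, Hif3a, from 2.71 to 5.18 FPKM in sham to 0.307 to 2.69 FPKM in IPF (log2 fold change -2.31, limma adjusted p = 0.0130). The size of the Hif3a change depended on the setting, from -1.39 with a pseudocount of 1 to -4.06 with the pan-endothelial covariate. Hif1a (0.12 lower on the log2 scale, limma adjusted p = 0.462) and Epas1 (768 and 790 FPKM) did not pass. Of 11 hypoxia targets 2 were higher and 0 lower: Adm, the vasodilator adrenomedullin, at 11.2 to 16.1 against 1.86 to 2.56 FPKM (log2 fold change 2.50, limma adjusted p = 3.86e-07), and the collagen hydroxylase P4ha1 (0.36, limma adjusted p = 0.0153). The median of the 11 targets was -0.117.

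The remaining lists held few calls. Of 6 genes of ligand processing 1 was lower, Ccbe1, which helps to cleave Vegfc into its active form, at 1.41 to 2.93 FPKM in IPF and 3.44 to 4.78 FPKM in sham (log2 fold change -0.997, limma adjusted p = 0.00621). The further ligand Vegfd on that list was at 43.7 and 42.3 FPKM, more than any member ligand but Vegfa (log2 fold change 0.04, limma adjusted p = 0.824). Among 13 receptor partners, the semaphorin receptor Plxnd1 was higher (0.42, limma adjusted p = 0.0224) and the heparan sulfate proteoglycan Gpc1 lower (-0.33, limma adjusted p = 0.0340), and both calls lay near the threshold. Plxnd1 had a limma adjusted p above 0.05, up to 0.0615, without IPF replicate 1, 2 or 4 or sham replicate 2 or 3. The same held with quantile normalization (0.06), with the replicate number as a block (0.064) and without the variance trend (0.051). With the pan-endothelial covariate Plxnd1 was at 0.85 on the log2 scale (limma adjusted p = 0.00267). Gpc1 had one of up to 0.0848 without IPF replicate 2, 3 or 4 or sham replicate 1, 2, 3 or 5. Without 1 lung the log2 fold change of Plxnd1 stayed between 0.37 and 0.50 and that of Gpc1 between -0.37 and -0.29. Of the 7 class 3 semaphorins and of the 30 signal mediators downstream of Kdr, 0 passed the limma test, and at an unadjusted p under 0.05, which 19.5% of all genes reached, there were 4 of each. The 4 semaphorins, Sema3e, Sema3b, Sema3f and Sema3g, all had lower means in IPF (log2 fold changes from -0.38 to -0.15), while of the 4 mediators Nck1 and Prkcb had higher and Prkca and Sphk1 lower means. These 8 are named after their values were seen.

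**Figure D5:**
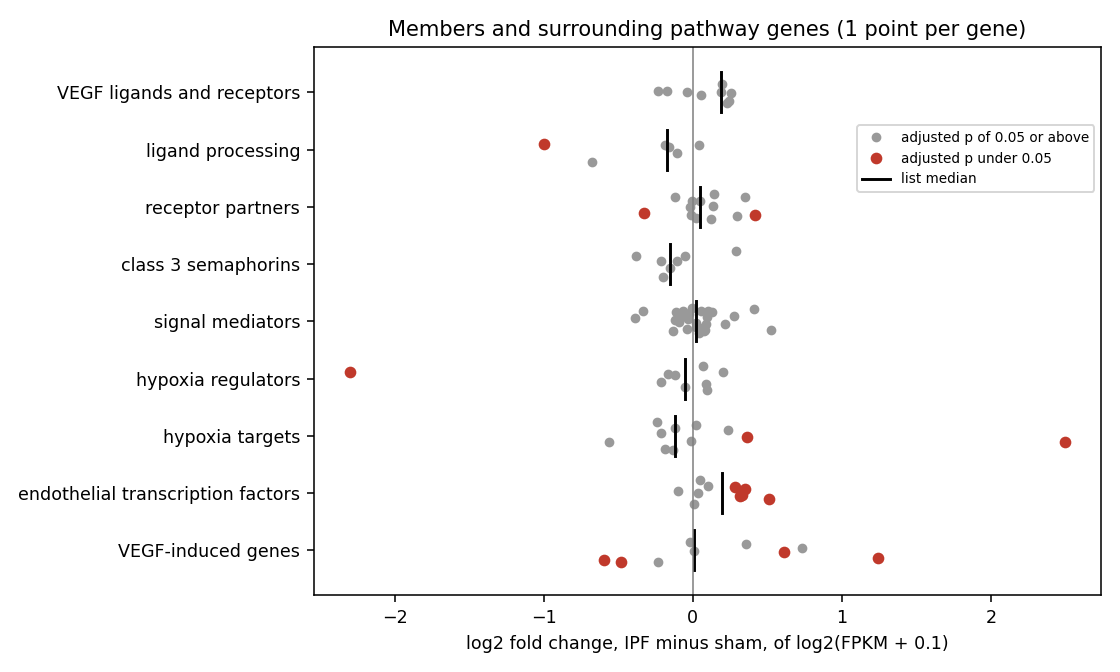
Log2 fold change of each gene (IPF minus sham, log2(FPKM + 0.1) scale, 1 point per gene, spread vertically within its list) for the members and 8 lists of the VEGF pathway. Red points had a limma adjusted p under 0.05, and the black bars are list medians. The members hold no red point, and Adm and Hif3a lie farthest to the right and left.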

How the data were processed

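Whole-lung mRNA of 10 mice was analysed. Per the study's methods, Fastp cleaned the reads, HISAT2 mapped them and StringTie gave the gene levels, which the authors deposited as FPKM. The methods name GRCm39, but the gene positions in the table are those of GRCm38, as in the submitters' processing notes. Those notes also list a human build and Bowtie 0.12.2, which the methods do not mention, so which aligner and build gave the FPKM is not certain. Limma 3.58.1 (R 4.3.3, trended variances) was run on log2(FPKM + 0.1) without covariates, over genes whose mean FPKM reached 0.1. Calls needed an adjusted p under 0.05. This scale understates changes of low genes. DESeq2, which the study used, was not run here, and the recovered reads were tested with limma voom. Reads were recovered as FPKM times length over each library's smallest step, and came out whole within 0.02 reads for genes under 10000 reads. P-values measure the spread between these lungs. The fit was tested on simulated data.

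Members and gene lists were chosen with earlier results of these data known. All members are named, with up to 3 called genes per pathway list (smallest adjusted p) and the 3 genes most correlated with each member. Promoter motifs were chosen after the values were seen. Ratios, permutation tests and figures were made in Python 3.11.15 (scipy 1.17.1). The alternatives were other pseudocounts, filters and scalings, voom, a replicate block, a pan-endothelial covariate and leaving out each lung.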

Additional observations from a re-analysis of the deposited data

Results flagged for a closer look

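Vegfa in IPF replicate 1 was at 228.8 FPKM, far above the other 4 IPF lungs (161.6 to 179.9 FPKM), and its gap to the nearest of them was 0.727 of the whole range of the group, beyond Dixon's 95% critical value of 0.71 for 5 samples. This was the 1 flag among 24 groups of values tested (9 members and 3 ratios in 2 groups), where chance flags about 1 in 20.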

How the results depend on the processing

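Under all 20 alternative fits 0 members passed the limma test, and Vegfa, Vegfb, Kdr, Flt4, Nrp1 and Nrp2 kept the sign of their log2 fold change in all of them, though not its size. The mean of the pan-endothelial genes as a covariate turned Vegfc to -0.32 and Pgf to -0.10, moved Nrp1 from 0.19 to 0.08 and Flt4 from -0.23 to -0.47, and lowered the calls to 5 of the pathway genes and 356 of all genes (1196 in the fit reported). The genes past both of the study's limits numbered 233 in the fit reported and 74 with a pseudocount of 1. Leaving out 1 lung at a time, Vegfc ranged from -0.0258 to 0.103, Flt1 from -0.0821 to 0.0033, Pgf from 0.15 to 0.32, Flt4 from -0.35 to -0.14, the pathway calls from 11 to 22 and all calls from 775 (without IPF replicate 4) to 1620 (without IPF replicate 5). The log2 difference of the Flt1 to Kdr ratio ranged from -0.34 to -0.23 that of Nrp2 to Nrp1 from 0.004 to 0.08, and that of Pgf to Vegfa from 0.33 to 0.55, where without sham replicate 4 its adjusted p by exact permutation test was 0.0476. Of the 36 correlated pairs 0 passed without the 2 farthest lungs, where each test has 8 lungs. The cause of the other changes was not tested. With the replicate number as a block, 14 pathway genes and 1045 genes in all were called, and Plxnd1 was not (adjusted p = 0.064). Correlations between same-numbered lungs ran from -0.02 to 0.095, and no source ties the numbers to a litter or day, so the number was not taken as a pairing. As a hint from the data, 3 of 5 IPF and 3 of 5 sham lungs correlated best with their own number. The member with the fewest reads was Pgf, with at least 65 per library.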

Other observations

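Cell types that make or receive VEGF were compared by their markers. Of 5 general capillary markers 1 passed the limma test, the apelin receptor Aplnr, at a mean of 39.5 FPKM in IPF and 21.7 FPKM in sham (log2 fold change 0.82, adjusted p = 0.0103), while Plvap was at 382 and 381 FPKM. Of 6 markers of aerocytes, the gas-exchange capillary cells, 0 passed the limma test and 2 had an unadjusted p under 0.05. Of 6 markers of lymphatic endothelium 0 passed and 2 had an unadjusted p under 0.05, with a list median log2 fold change of 0.075. Both of these had a lower mean in IPF, Lyve1 (-0.50, limma adjusted p = 0.128) and Pdpn (-0.31, limma adjusted p = 0.0979). Their sham means were 245 and 88.3 FPKM, where the other 4 ran from 0.349 (Reln) to 7.74 FPKM (Ccl21a). Whether lymphatic cells carry these 2 differences was not tested. The other 4 had a higher mean in IPF, from 0.06 for Reln to 1.28 for Ccl21a (limma adjusted p = 0.410). A second Ccl21a entry, below the filter on low values, was at most 0.0608 FPKM in IPF and at 0.0697 to 0.143 FPKM in sham. Of 6 type 1 alveolar markers 0 passed and 1 had an unadjusted p under 0.05. Of 6 type 2 alveolar markers 1 was higher, Lpcat1 (0.33, limma adjusted p = 0.0163), and of 7 markers of smooth muscle and pericytes 1 was lower, the pericyte proteoglycan Cspg4 (-0.43, limma adjusted p = 0.0174).

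Among blood cell markers, calls were limited to B and T cells. All 3 B cell markers were higher in IPF, among them Cd79a at 14.7 and 7.33 FPKM (log2 fold change 1.02, limma adjusted p = 0.00591), with a summed level of 17.0 to 26.9 FPKM against 7.63 to 13.5 FPKM. Of 4 T cell markers Cd4 was higher (0.48, limma adjusted p = 0.0440). The 5 neutrophil markers had a median log2 fold change of 0.968 and 0 calls by limma, with 4 at an unadjusted p under 0.05. IPF replicate 5 carried much of this, and without it, a setting chosen after seeing the data, the median was 0.587. Macrophage, ciliated, secretory, erythroid and cardiac-type muscle markers had 0 calls by limma, with 1 macrophage marker and 0 of the others at an unadjusted p under 0.05. The genes named in these paragraphs beyond the fixed lists' counts were chosen after their values were seen.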
